A study of Homo sapiens with 6 samples.

Results

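The SALL and IRX genes encode homeotic-type transcription factors, and their levels were compared between DE cells differentiated with and without saracatinib (SAR). Members were chosen by name, as the rows of the table whose Ensembl gene ID belongs to SALL1, SALL2, SALL3, SALL4, IRX1, IRX2, IRX3, IRX4 or IRX5, which gave 9 of the 40396 genes listed. These names were selected on SAR against control values of the same 6 libraries, so the differences between the groups given for these 9 genes are descriptions, and no p-value is printed for them. IRX6, the Iroquois gene outside the list, is shown beside them.

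RNA-seq was performed on the human embryonic stem cell (ESC) line H1 after 3 days of DE differentiation, in 3 control and 3 SAR libraries. Both groups received 50 ng/mL activin A (AA), the ligand that drives DE formation, for 3 days and 2.5 µM CHIR99021, a GSK3 inhibitor that activates Wnt signaling, for the first 24 h, on Matrigel. SAR is a kinase inhibitor developed against the Src family and was present at 0.5 µM for the whole 3 days, whereas control cells received the same volume of its solvent, DMSO. One cell line was sequenced, and whether the 3 libraries of a group came from separate cultures is not stated, so the p-values below measure only the spread between these libraries. The expression unit is FPKM, the fragments counted on a gene scaled to its exon length and to the library total, and it can be compared between genes of a library.

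The SALL proteins are zinc finger factors related to Drosophila spalt. They recruit the NuRD chromatin remodelling and histone deacetylase complex and mostly act as repressors. SALL4 works together with POU5F1 and NANOG in pluripotent cells, and SALL1 is required for kidney formation. The IRX proteins are homeodomain factors of the TALE class, named after the Drosophila Iroquois complex, and pattern the nervous system, heart, limb and lung. The human IRX genes stand in 2 clusters, with IRX4, IRX2 and IRX1 in that order on chromosome 5, and IRX3, IRX5 and IRX6 on chromosome 16.

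Start regions are shown first for 4 members. IRX2 and SALL3 each start opposite a partner gene whose level is described below, IRX1 had the largest fold change of the members, and IRX4 is the member whose groups overlapped. Each is RefSeq sequence on GRCh38.p14, 5′ to 3′ on the gene's own strand, from 250 bases before to 50 bases after the annotated start. Capitals mark the letters CAGAC (the SMAD box, the factors through which AA signals) or CTTTGA (TCF/LEF factors of Wnt signaling) on either strand.
IRX2, chr5:2751628-2751927, minus strand: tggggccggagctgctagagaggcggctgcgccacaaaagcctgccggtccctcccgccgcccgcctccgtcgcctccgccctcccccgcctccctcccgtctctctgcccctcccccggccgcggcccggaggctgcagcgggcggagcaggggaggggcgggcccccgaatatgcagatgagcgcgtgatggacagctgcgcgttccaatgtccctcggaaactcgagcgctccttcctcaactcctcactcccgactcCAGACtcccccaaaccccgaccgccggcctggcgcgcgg
SALL3, chr18:78979568-78979867, plus strand: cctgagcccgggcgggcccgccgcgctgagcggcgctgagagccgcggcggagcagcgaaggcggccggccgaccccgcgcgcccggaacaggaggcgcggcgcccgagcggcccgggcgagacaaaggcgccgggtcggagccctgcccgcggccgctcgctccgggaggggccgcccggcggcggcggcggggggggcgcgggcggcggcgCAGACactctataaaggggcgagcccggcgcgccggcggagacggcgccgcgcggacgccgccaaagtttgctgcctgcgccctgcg
IRX1, chr5:3595582-3595881, plus strand: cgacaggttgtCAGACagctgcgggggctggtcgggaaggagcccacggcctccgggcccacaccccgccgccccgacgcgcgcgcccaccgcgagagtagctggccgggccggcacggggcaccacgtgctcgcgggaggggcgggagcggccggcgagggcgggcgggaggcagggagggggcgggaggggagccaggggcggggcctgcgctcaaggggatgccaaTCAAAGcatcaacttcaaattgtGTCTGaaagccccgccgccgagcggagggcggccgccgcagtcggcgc
IRX4, first of 3 entries, chr5:1886896-1887195, minus strand: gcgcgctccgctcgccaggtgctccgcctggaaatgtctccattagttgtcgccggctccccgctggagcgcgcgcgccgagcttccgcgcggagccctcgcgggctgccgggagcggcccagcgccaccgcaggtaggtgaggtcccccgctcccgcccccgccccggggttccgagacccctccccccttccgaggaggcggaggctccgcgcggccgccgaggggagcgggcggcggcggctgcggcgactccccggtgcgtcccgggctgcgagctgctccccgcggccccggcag
RefSeq start regions were matched for 5 of the 9 members, these 4 and SALL2. They were not matched for SALL1, SALL4, IRX3 and IRX5.

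The 4 printed windows are rich in CpG pairs. SALL3 had 83.0% G and C with 59 CpG pairs, IRX4 79.7% with 47, IRX1 76.0% with 38 and IRX2 73.3% with 34, beside medians of 58.3% and 14 CpG pairs over all 27305 promoters of the same length. The SALL2 window stood apart with 46.0% G and C and 3 CpG pairs. Altogether 4 sets of letters were searched on both strands, none of which contains another. CAGAC was found in 45.0% of all promoters and in the windows of SALL2, SALL3, IRX1 and IRX2, but not in the first IRX4 window. The other 2 IRX4 windows each held CAGAC on one of the strands, and 1 of them also held the TEAD letters given below. CTTTGA was found in 13.1% of all promoters and, among the first windows of the 5 members, in IRX1 alone. TGTTTA, a core of FOX sites found in 12.4% of promoters, and GGAATG, a core of TEAD sites found in 14.0%, had no match in the first windows of those 5 members. A match is a description of the letters and not of binding.

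SALL4 was the most abundant member in both groups. SALL4 (ENSG00000101115, chr20:51782331-51802520, minus strand) measured 44.5, 51.4 and 48.6 FPKM in control libraries 1 to 3 and 67.3, 67.5 and 66.9 FPKM in the SAR libraries. The lowest SAR library exceeded the highest control library, and the means were 48.1 ± 3.47 and 67.2 ± 0.304 FPKM (SD, n = 3), a ratio of 1.40. SALL1 (ENSG00000103449, chr16:51135975-51151367, minus strand) measured 15.65, 16.96 and 16.75 FPKM in control and 49.4, 49.9 and 48.7 FPKM with SAR. Its SAR libraries lay close together and far above control, and their mean was 3.00 times the control mean, at 49.3 ± 0.606 against 16.5 ± 0.701 FPKM (SD, n = 3). The log2 fold change on log2(FPKM + 0.1), which understates the change of low genes, was 1.58 ± 0.0519 (SE) for SALL1 and 0.48 ± 0.0628 (SE) for SALL4.

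SALL2, the most divergent family member, and SALL3 were also higher with SAR. SALL2 (ENSG00000165821, chr14:21521081-21537216, minus strand) measured 16.6, 16.0 and 18.2 FPKM in control and 22.9, 30.4 and 29.9 FPKM with SAR. SAR library 1 was the lowest of its group but above every control library, and the means were 16.9 ± 1.12 and 27.7 ± 4.19 FPKM (log2 fold change 0.70 ± 0.117, SE). SALL3 (ENSG00000256463, chr18:78980275-79002677, plus strand) measured 1.59, 1.48 and 1.43 FPKM in control and 3.15, 2.96 and 3.49 FPKM with SAR. The groups did not overlap, and the log2 fold change of 1.04 ± 0.0951 (SE) lay just above the threshold of 1. It was 0.98 without SAR replicate 3.

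The make-up of the SALL family differed between the groups because its members differed by unequal ratios. SALL1 made up 19.98, 19.77 and 19.73% of the summed SALL FPKM in control and 34.6, 33.1 and 32.7% with SAR. SALL4 made up 58.0 ± 1.68% in control and 45.6 ± 1.34% with SAR (SD, n = 3). The ratio of SALL1 to SALL4 was 0.342 ± 0.0112 in control and 0.733 ± 0.00577 with SAR, without overlap between the groups. A share within a library does not depend on how libraries are scaled to each other. The share of SALL2 overlapped between the groups, at 20.4 ± 1.55% and 18.7 ± 2.36%, and SALL3 stayed at 2.34% or below in every library. The sum of the 4 genes was 83.0 ± 4.07 FPKM in control and 147 ± 4.19 FPKM with SAR.

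**Figure D1:**
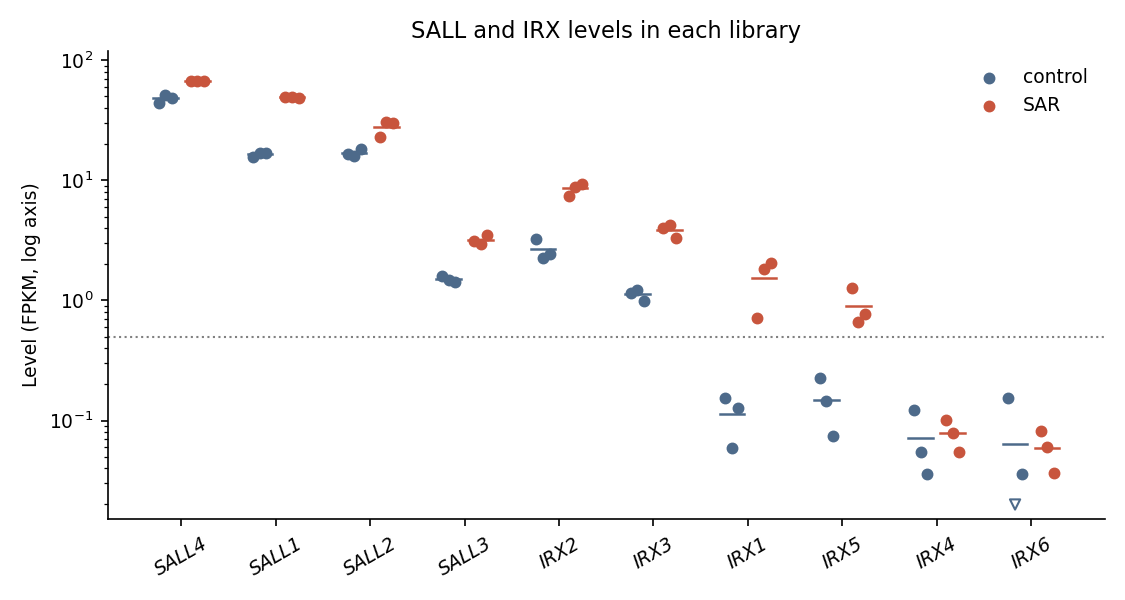
Level of each SALL and IRX gene in FPKM on a log axis, with 1 point for each library and a short line at the mean of each group (control in blue, SAR in red). The dotted line marks the mean of 0.5 FPKM needed for testing, and the open triangle stands for a library at 0. SAR libraries lie above all control libraries for the first 8 genes, from SALL4 to IRX5, and overlap with control for IRX4 and IRX6.

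Of the chromosome 5 cluster, IRX2 was the most abundant. IRX2 (ENSG00000170561, chr5:2745845-2751662, minus strand) measured 3.28, 2.28 and 2.45 FPKM in control and 7.43, 8.84 and 9.41 FPKM with SAR. Its means were 2.67 ± 0.535 and 8.56 ± 1.02 FPKM (SD, n = 3), a ratio of 3.21. IRX1 (ENSG00000170549, chr5:3596054-3601403, plus strand) was close to absent in control, at 0.154, 0.0591 and 0.127 FPKM, and measured 0.721, 1.82 and 2.04 FPKM with SAR. SAR library 1 held less IRX1 than the others of its group but more than any control library. These values rest on 7, 3 and 5 reads in control and 25, 64 and 78 reads with SAR, as recovered from the FPKM steps, and the log2 fold change of 2.84 had an SE of 0.435. IRX4 (ENSG00000113430, chr5:1877413-1887236, minus strand), which is known from ventricular heart muscle, measured 0.123, 0.0551 and 0.0356 FPKM in control and 0.101, 0.0794 and 0.0549 FPKM with SAR. With at most 8 reads in a library its groups overlapped, and a difference was not detectable at this depth.

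The chromosome 16 cluster showed the same division between 2 higher genes and 1 that stayed low. IRX3 (ENSG00000177508, chr16:54283304-54286763, minus strand) measured 1.15, 1.23 and 0.993 FPKM in control and 3.98, 4.28 and 3.34 FPKM with SAR. The groups were well apart, with means of 1.12 ± 0.120 and 3.87 ± 0.484 FPKM (log2 fold change 1.69 ± 0.127, SE). IRX5 (ENSG00000176842, chr16:54930862-54934485, plus strand) measured 0.225, 0.144 and 0.0746 FPKM in control and 1.27, 0.665 and 0.765 FPKM with SAR. Here SAR library 1 was the highest of its group, whereas it was the lowest for IRX1 and IRX2. IRX5 rests on 14, 10 and 4 reads in control and 60, 32 and 40 reads with SAR, and its log2 fold change of 2.01 had an SE of 0.391. IRX6 measured 0.155, 0 and 0.0359 FPKM in control and 0.0812, 0.06 and 0.0368 FPKM with SAR, so its groups overlapped. IRX3 and IRX5 are near copies in part, and 60 of their 75-base stretches were shared, 1.99% and 1.96% of each.

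Within the IRX family the leading gene stayed the same. IRX2 made up 64.5 ± 3.47% of the summed IRX FPKM of the 5 members in control and 57.2 ± 2.74% with SAR (SD, n = 3), and IRX3 27.7 ± 4.67% and 26.1 ± 4.21%. The share of IRX2 was lower with SAR without overlap, though narrowly, at 60.51% or more in control and 60.3% or less with SAR. The share of IRX3 overlapped between the groups. The ratio of IRX2 to IRX3 overlapped between the groups, at 2.39 ± 0.501 and 2.25 ± 0.505. The share of IRX1 was 2.72 ± 1.01% in control and 10.0 ± 4.10% with SAR, and the ratio of IRX1 to IRX2 did not overlap between the groups. The sum of the 5 genes was 4.12 ± 0.700 FPKM in control and 14.9 ± 1.24 FPKM with SAR.

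**Figure D2:**
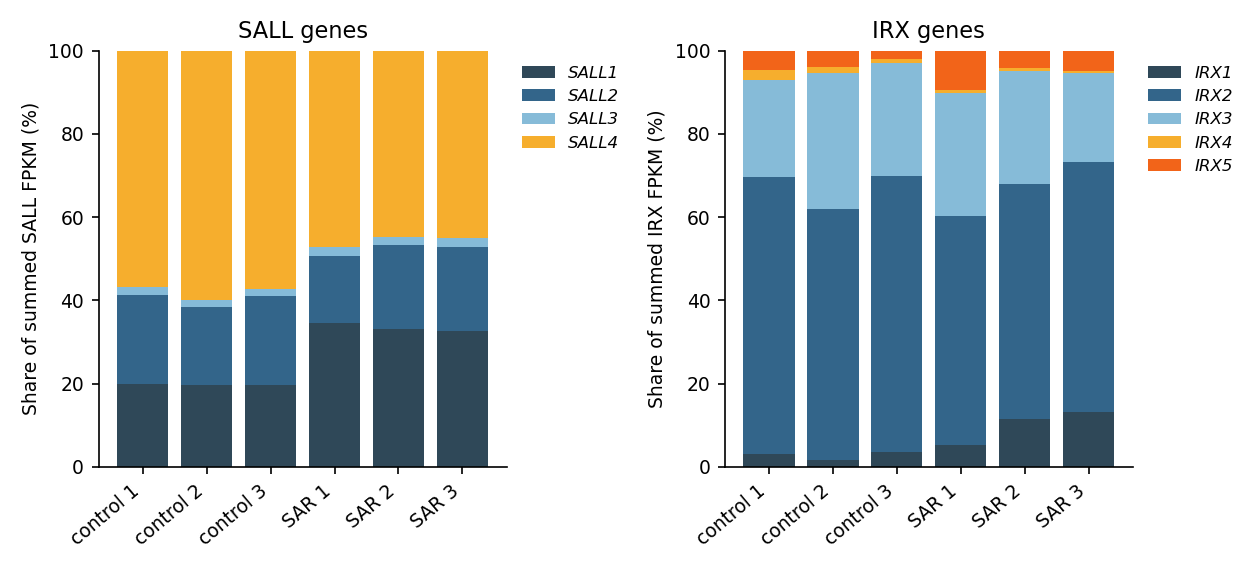
Share of each gene in the summed FPKM of its family, in percent, for each of the 6 libraries, with SALL genes on the left and the 5 IRX members on the right. The SALL1 segment covers 19.73 to 19.98% of the bar in control and 32.7 to 34.6% with SAR, and IRX2 is the widest IRX segment in every library.

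The order of levels put the SALL genes above most IRX genes in both groups. In control it ran SALL4, SALL2, SALL1, IRX2, SALL3, IRX3, IRX5, IRX1, IRX4 and IRX6, and the ranges of SALL2 and SALL1 overlapped, as did those of each neighbouring pair from IRX5 to IRX6. With SAR it ran SALL4, SALL1, SALL2, IRX2, IRX3, SALL3, IRX1, IRX5, IRX4 and IRX6. Here only the ranges of IRX3 and SALL3, of IRX1 and IRX5 and of IRX4 and IRX6 overlapped among neighbouring pairs. SALL1 thus overlapped with SALL2 in control and stood above it with SAR, where the ratio of SALL1 to SALL2 was 1.81 ± 0.302 against 0.975 ± 0.0751.

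The limma fit covered the 16371 genes whose mean reached 0.5 FPKM. Of these, 3.41% were called upregulated and 1.58% downregulated, which required a log2 fold change beyond 1 in either direction and a Benjamini-Hochberg adjusted p below 0.05. Of the 9 members, 8 were tested and IRX4 was under the minimum. SALL1, SALL3, IRX1, IRX2, IRX3 and IRX5 were called upregulated, SALL2 and SALL4 had log2 fold changes under 1, and 0 members were called downregulated. All 3 SAR libraries lay above all 3 control libraries in 8 of the 9 members and in 35.5% of all tested genes. Nothing is read from these counts, since the members were chosen from the same contrast. IRX1 and IRX5 also passed the minimum only through their level with SAR, and IRX5 did so with a mean of 0.523 FPKM. The whole table was shifted slightly towards SAR, with a median log2 fold change of 0.12 over all tested genes, and the range over the tested members was 0.48 to 2.84. After median-ratio rescaling, which brings this median to 0.00, SALL3 fell under the fold threshold and the other 5 called members remained called.

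**Figure D3:**
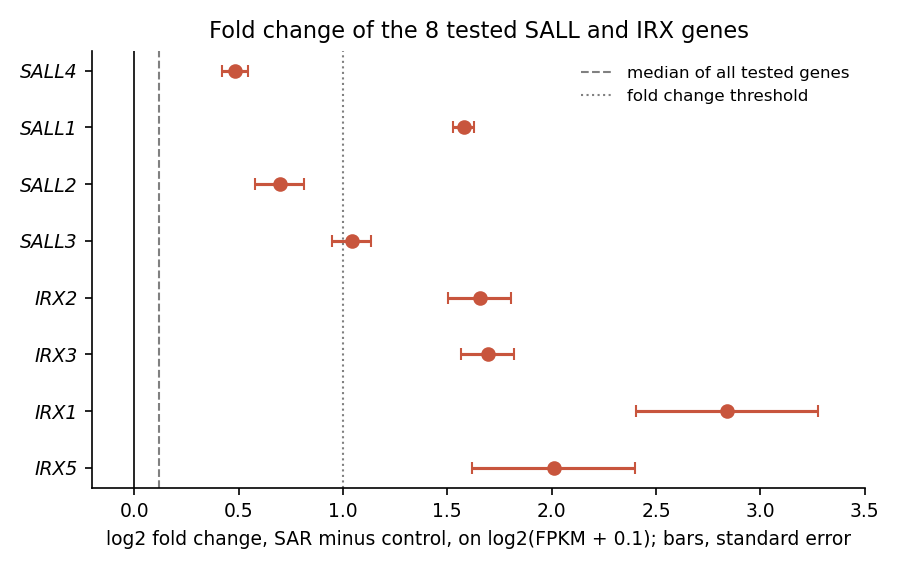
Log2 fold change (SAR minus control, on log2(FPKM + 0.1)) of the 8 tested SALL and IRX genes, with bars for the standard error of the limma fit. The dashed line is the median of all tested genes at 0.12 and the dotted line the fold change threshold of 1. SALL4 and SALL2 lie below the threshold, SALL3 touches it and IRX1 has the widest bar.

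Genes next to the members were examined next. They are not members themselves, but the window was chosen with earlier results of these data known. Within 500 kb of a member's gene body GENCODE 29 holds 192 other genes, of which 116 were listed and 32 were tested. Of these 32, IRX2-DT and LINC01896 were called upregulated and 0 were called downregulated, with a median log2 fold change of 0.17 beside 0.12 over all tested genes. Both lie beside a member on the opposite strand.

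IRX2-DT, the divergent transcript of IRX2, measured 0.593, 0.404 and 0.413 FPKM in control and 5.01, 5.30 and 4.52 FPKM with SAR. The SAR mean was 10.5 times the control mean (log2 fold change 3.16 ± 0.152, SE, limma adjusted p = 0.00012). As its control mean was under 0.5 FPKM, it was tested only through its level with SAR, and in the fit without a filter its limma adjusted p was 0.000469. In RefSeq its start lies 216 bases from that of IRX2, and the 2 windows share 285 bases, so the IRX2 sequence printed above is nearly the whole IRX2-DT promoter read on the other strand. LINC01896, a long noncoding RNA gene, measured 3.00, 2.27 and 2.48 FPKM in control and 8.34, 8.18 and 9.04 FPKM with SAR (log2 fold change 1.69 ± 0.109, SE, limma adjusted p = 0.000332). Its RefSeq start lies 127 bases from that of SALL3 on the opposite strand, with 226 bases shared between the windows.

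CRNDE, a long noncoding RNA gene named here after its values were seen, lies 1673 bases from IRX5 on the opposite strand and measured 4.23, 4.79 and 4.44 FPKM in control and 6.82, 6.52 and 7.55 FPKM with SAR. It was higher with a limma adjusted p = 0.00266, but its log2 fold change of 0.62 ± 0.0810 (SE) was under the threshold. These 3 were the only tested neighbours within 5 kb, a distance set after the values were seen. Of the 29 tested neighbours beyond 5 kb, 0 were called in the limma fit, and log2 fold changes ran from −0.27 to 0.98. With the minimum fold dropped, 5 of the 29 were higher at an adjusted p under 0.05, beside 3885 of all 16371 tested genes. An unadjusted p under 0.05 was seen in 9, a count for which no share over all genes was computed. FTO, whose introns are known to hold IRX3 enhancers and which is also named after its values were seen, had a log2 fold change of −0.27 (limma adjusted p = 0.122). Without SAR replicate 3, 4 neighbours were called, with SDHAP3 (log2 fold change 1.02) and ENSG00000248126 (1.02) added, both nearest to IRX4. ENSG00000248126 rests on only 4, 6 and 5 reads in control and 8, 8 and 2 reads with SAR. Its lowest SAR library was the one left out, and its limma adjusted p in the main fit was 0.634.

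**Figure D4:**
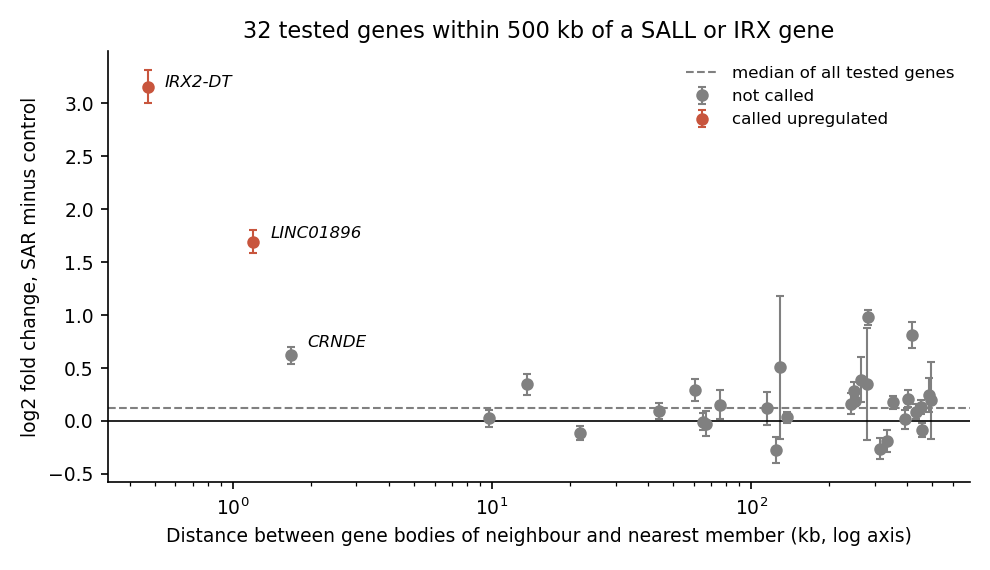
Log2 fold change (SAR minus control) of the 32 tested genes within 500 kb of a member, against the distance between the gene bodies in kb on a log axis, with bars for the standard error. The 2 genes called upregulated, in red, are the 2 nearest to a member, and from 5 kb outwards the points lie between −0.27 and 0.98.

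Strand was not stated for the authors' counting. In GENCODE 29, 20.6% of the exon bases of IRX1, 8.77% of those of SALL2 and 0.344% of those of IRX3 overlap an antisense gene, so reads there may have been assigned to either gene or to none. The other members and IRX6 share no exon base with a gene on the opposite strand.

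The other TALE homeobox genes, which include the PBX and MEIS cofactors of homeodomain proteins, did not share one direction. Of 13 listed, 9 were tested, 1 was called upregulated and 0 downregulated, with a median log2 fold change of 0.35. The called gene was PKNOX2, at 0.458 ± 0.0574 FPKM in control and 1.02 ± 0.152 FPKM with SAR (log2 fold change 1.01 ± 0.197, SE, limma adjusted p = 0.0102). It too passed the minimum only through SAR, and without a filter its limma adjusted p was 0.0215. It lost the call under 7 alternatives, among them leaving out control replicate 2 or 3 or SAR replicate 3, which each left 0 called TALE genes. Without a minimum fold, 6 of the 9 were higher and 1 was lower, beside 3885 and 1563 of all 16371 tested genes. The most abundant were PBX2, with a log2 fold change of 0.02 (adjusted p = 0.816), and TGIF1, a repressor of SMAD signaling, with 0.58 (adjusted p = 0.000859). PKNOX1, named after its values were seen, was the lower one, at −0.78 (adjusted p = 0.00104). The 3 Teashirt genes, also homeotic-type zinc finger genes, had means under 0.5 FPKM and none was tested.

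Genes whose products work with the SALL proteins were counted beside the 3.41% of all tested genes called upregulated and 1.58% downregulated, and the few calls are near that background. Of 15 NuRD genes 14 were tested and 0 were called by limma, with a median log2 fold change of 0.05. With the minimum fold dropped, 5 of the 14 were higher at an adjusted p under 0.05, beside 3885 of all 16371 tested genes. An unadjusted p under 0.05 was seen in 6, a count for which no share over all genes was computed. The most abundant, HDAC1, a histone deacetylase, had a log2 fold change of 0.23 (adjusted p = 0.014), and RBBP4, a histone-binding subunit, had −0.09 (adjusted p = 0.376). Of the 12 pluripotency genes linked to SALL4, 11 were tested and NANOG alone was called, with 14.7 ± 1.71 FPKM in control and 5.89 ± 0.604 FPKM with SAR (log2 fold change −1.30 ± 0.107, SE, limma adjusted p = 0.000672). NANOG thus fell while SALL4 was higher with SAR. Without a minimum fold, 3 of the 11 were higher and 1 was lower at an adjusted p under 0.05. The counts for all 16371 tested genes under that rule were 3885 and 1563. SOX2, named after its values were seen, was 1 of the 3 higher genes. It measured 22.1 ± 6.42 FPKM in control and 39.8 ± 3.18 FPKM with SAR (log2 fold change 0.88 ± 0.195, SE, limma adjusted p = 0.0153). The most abundant, the RNA-binding protein LIN28A and the nodal co-receptor TDGF1, had log2 fold changes of 0.20 (adjusted p = 0.0267 and 0.047), and POU5F1, at 181 ± 41.0 and 219 ± 4.43 FPKM, had 0.31 (adjusted p = 0.167).

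Marker genes were listed to describe the cells behind these values. In bulk RNA, fewer cells of a type and less RNA per cell cannot be told apart. All 11 DE markers were tested, and 3 were called upregulated (FOXA2 1.44, SOX17 1.06 and HHEX 1.03 on the log2 scale) and 4 downregulated (GSC −1.48, EOMES −1.36, CER1 −1.28 and GATA4 −1.05), with summed levels of 3973 to 5079 FPKM in control, most of it CER1, and 2092 to 2144 FPKM with SAR. Over all tested genes 3.41% were called upregulated and 1.58% downregulated. Without a minimum fold, 4 of the 11 DE markers were higher and 6 were lower at an adjusted p under 0.05. Under that rule 3885 of all 16371 tested genes were higher and 1563 were lower. Of 7 pluripotency markers NANOG was called downregulated, while SOX2 was higher but under the fold threshold (log2 fold change 0.88). The sum of the 7 was 853 to 955 FPKM in control and 1053 to 1066 FPKM with SAR. Of 12 mesoderm markers 6 were tested, TBXT was called upregulated (3.51 ± 0.245 against 11.7 ± 2.15 FPKM) and MIXL1 downregulated (log2 fold change −1.35), with sums of 65.3 to 69.0 and 42.0 to 54.2 FPKM. FOXF1 was at 0 in all SAR libraries and MESP1, MSGN1, HAND1 and MEOX1 stayed under 0.5 FPKM in every library. Of 11 neural ectoderm markers 5 were tested and SIX3 was called upregulated (0.343 ± 0.112 against 1.14 ± 0.160 FPKM, tested only through its level with SAR, limma adjusted p = 0.0147 without a filter), with sums of 234 to 249 and 252 to 263 FPKM that came mainly from OTX2, NES and SOX2. SOX1 was at 0 in all control libraries, and SOX1, PAX6, ZIC1, LHX2, POU3F2 and NEUROG2 stayed under 0.5 FPKM in every library. PAX6, named after its values were seen, went the other way from SIX3. It measured 0.106, 0.0992 and 0.0616 FPKM in control, from 48, 50 and 24 reads. With SAR it measured 0.0029, 0.0029 and 0.0026 FPKM, from 1 read in each library, and it was under the minimum for testing. The part of these markers in the SALL and IRX values was not tested.

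Genes whose pattern over the 6 libraries was most like that of a member were ranked among 12657 genes by Pearson's r of log2(FPKM + 0.1). This is a description, as the 6 points fall into the 2 groups and share libraries and depth. As r does not reflect the size of a change, the log2 fold change is given after it. For SALL1, with 1.58, they were MAF, a leucine zipper factor (r = 0.9993, 1.23), OCLN, the tight junction protein occludin (r = 0.9986, 1.06), and TSPAN5, a tetraspanin (r = 0.9986, 0.94). For SALL4, with 0.48, they were the RNA helicase gene DDX42 (r = 0.9976, 0.11, limma adjusted p = 0.0977), TMEM74B (r = 0.9963, 0.84) and FOXH1, the SMAD partner in AA and nodal signaling (r = 0.9962, 0.37). For IRX3, with 1.69, they were MGAT1, an N-glycan enzyme (r = 0.9990, 0.43), CYB561 (r = 0.9985, 0.21) and OARD1 (r = 0.9981, 0.51), all of which changed far less than IRX3.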

How the data were processed

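RNA-seq FPKM for 40396 Ensembl gene IDs in 6 libraries were deposited by the authors as 1 table, without pooling. The submitters' processing notes name HISAT2, featureCounts (Subread), DESeq2 and GRCh38.p13. Their order and versions, the annotation release and the strand setting are not given in the sources used here. FPKM are scaled to each library's total, and a gene's level also depends on its annotated length. Library totals, recovered from the FPKM steps, were 18877964 to 24419937 reads in control and 16681280 to 18389543 reads with SAR. With these totals and GENCODE 29 exon lengths, the FPKM of 23088 genes gave whole read counts (tolerance 0.01 reads). These were 59.17% of the genes with a GENCODE 29 length. Reads given for a gene used the length nearest to its GENCODE 29 exon length that gave whole reads in all libraries. For IRX1 this was 2080 bases against 1858. Such reads cover counting error only.

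Because FPKM are not counts, log2(FPKM + 0.1) was fitted with limma (version 3.58.1, R 4.3.3), using lmFit and trended eBayes, for genes whose mean reached 0.5 FPKM, and p-values were adjusted by Benjamini-Hochberg over all of them. Calls required an adjusted p below 0.05 and a log2 fold change beyond 1 in either direction. The test was checked on simulated data, where 194 of 200 changed genes were called in the right direction and 4 unchanged genes were called. The changes were set beyond the fold threshold and only in genes well above the minimum mean. The check thus does not cover genes near either limit. Summaries and plots were made in pandas 2.3.3 and matplotlib 3.10.9 (Python 3.11.15). Symbols were available for 30235 IDs, and GENCODE 29 positions for 39023. Start regions came from RefSeq.

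The members, gene lists, neighbour window and tests were chosen with earlier results of these data known. Named genes were the members and IRX6, called genes of each list (up to 5) with the 2 most abundant, called neighbours, SOX17, FOXA2, POU5F1 and TBXT, and the 3 genes most like SALL1, SALL4 and IRX3. Others are said to be named after their values were seen. Alternatives changed the pseudocount (1 or 0.01), the minimum mean (none or 1 FPKM), the scaling (median-ratio or quantile) and the trend (left out), added a replicate block, left out each library, or dropped the minimum fold change.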

Additional observations from a re-analysis of the deposited data

How the results depend on the processing

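The direction of all 8 tested members stayed the same under every alternative that gave a value, with log2 fold changes of 1.46 to 1.60 for SALL1, 0.58 to 0.83 for SALL2, 0.75 to 1.09 for SALL3, 0.36 to 0.53 for SALL4, 1.14 to 3.59 for IRX1, 1.39 to 1.81 for IRX2, 1.19 to 1.79 for IRX3 and 0.71 to 2.59 for IRX5. Between 4 and 6 members were called, or 8 without a minimum fold, and SALL1, IRX2 and IRX3 were called under every alternative. The members were chosen on this contrast in the same libraries. A kept direction or call thus follows largely from that choice and is only a description. IRX5 was not tested when any 1 SAR library was left out, as its mean then fell under the minimum. Genes called upregulated over the whole table went from 559 to 169 with a pseudocount of 1, 369 with a minimum mean of 1 FPKM, 353 after quantile normalization and 3885 without a minimum fold change. Genes called downregulated went from 259 to 141 with a pseudocount of 1, 391 after quantile normalization and 1563 without a minimum fold change. Median-ratio rescaling gave 397 and 363. The called TALE genes went from 1 to 0 with a pseudocount of 1, a minimum of 1 FPKM, or after median-ratio or quantile scaling, to 0 or 1 when 1 library was left out, and to 7 without a minimum fold change. The called neural ectoderm markers went from 1 to 0 with a pseudocount of 1 or a minimum mean of 1 FPKM and to 1 or 2 when 1 library was left out. Without a minimum fold change there were 10 called DE markers, 2 neural ectoderm markers, 5 NuRD genes, 4 SALL4 partners, 4 pluripotency markers, 4 mesoderm markers and 8 neighbours. Leaving out 1 library gave 1 to 2 SALL4 partners, 1 to 2 pluripotency markers and 2 to 4 neighbours. A pseudocount of 1 lowers fold changes of low genes by construction, and a higher minimum leaves fewer genes to test. The cause was not tested for quantile normalization or a left-out library.

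No pairing by replicate number was seen. Deviations of same-numbered libraries correlated at 0.0729, 0.0029 and 0.0247, and those of the other pairs at −0.0833 to 0.0667. With 3 libraries in a group these values cannot exclude a shared culture or batch. The fit with a replicate block called the same 6 members. Low depth limits IRX1, IRX4, IRX5 and IRX6, which rest on at most 14 reads in any control library. For each of these genes control library 1 held the most reads of its group. That library also had 33169 genes above 0, against 29506 to 30109 in the other libraries.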

Other observations

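Of the neighbour genes listed within 500 kb of a member, 84 were under the minimum for testing. In 8 of these all SAR libraries lay above all control libraries and in 0 below, beside 7.95% above and 4.03% below among all 24025 untested genes of the table, so nothing is read from the count. Some of the 8 were separated by single reads. ENSG00000280344, on the strand opposite SALL1 and 24699 bases from it, was listed at 0, 0.0145 and 0.0187 FPKM in control and at 0.127, 0.292 and 0.230 FPKM with SAR, from at most 1 read in a control library and 6 to 14 reads in a SAR library. ENSG00000283689, an antisense gene that overlaps IRX3, measured 0.0271 ± 0.0236 FPKM in control and 0.166 ± 0.113 FPKM with SAR (SD, n = 3), from at most 5 reads in a library. LINC02128, 234912 bases from SALL1, measured 0.129 ± 0.0380 and 0.270 ± 0.0358 FPKM. These genes were named after their values were seen and were outside the main test. In the fit without a filter on low values, ENSG00000280344 was called upregulated (log2 fold change 1.48 ± 0.304, SE, limma adjusted p = 0.0302). MEIS2, a TALE gene under the minimum, measured 0.0850 ± 0.0214 FPKM in control and 0.258 ± 0.0475 FPKM with SAR.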
